A study of Mus musculus with 11 samples.

Results

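The genes examined here were the neighbours of the floxed Chd7 locus in the mouse: every protein-coding gene on chromosome 4 of GRCm38 (mm10) whose start, taken as its lowest coordinate, lay between 3000000 and 25000000, without Chd7 itself. There were 80 such genes among the 38924 genes counted in each library, 20 of them below the Chd7 start and 60 above it. They were selected by a rule of position that uses no measured value, although the set was chosen with earlier results of these data known. Expression was measured by RNA-Seq in granule cell precursors (GCps), the proliferating neuronal progenitors of the external granule layer, purified from pooled postnatal day 7 cerebella on a Percoll gradient after the most posterior lobules, IX and X, had been removed. Both groups held 2 libraries. The cko libraries came from mice with 2 floxed Chd7 alleles and a Math1-Cre transgene (Math1-Cre;Chd7 flox/flox), which drives Cre recombinase in the granule cell lineage and largely spares the posterior lobules. The control libraries are labelled Chd7flox/+, whereas the extraction notes of the same samples describe the control as carrying 2 floxed alleles. C57Bl/6J is the labelled strain of both groups. The methods add that the lines had been crossed to this strain for a small minimum number of generations, and the strain in which the floxed allele was first made is not stated in these sources.

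A gene altered in embryonic stem cells travels with the DNA beside it. Until recombination separates them, the chromosome around a floxed allele can keep stretches of the founder strain, often called passenger DNA, and sequence differences in such stretches can raise some genes and lower others without any part played by the altered gene. If the controls were Chd7flox/+, cko cells carried 2 copies of the floxed chromosome segment and control cells 1, so that passenger differences, the Cre transgene and loss of CHD7 cannot be told apart in this design. If the controls carried 2 floxed alleles, the groups had the same number of floxed segments. The Cre transgene and loss of CHD7 still could not be told apart in that case. The comparison below asks whether the neighbours of Chd7 differed between the genotypes more often, by more, or more in one direction than genes elsewhere, and whether their differences depended on the distance from Chd7.

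Chd7 (ENSMUSG00000041235, chromosome 4 from 8690406 to 8867659, plus strand), which encodes an ATP-dependent chromatin remodeler, was counted 30268 and 21822 times in cko replicates 1 and 2, against 24693 and 19255 times in the controls. On the CPM scale, which divides counts by the effective size of each library, these are 392 and 355 CPM in cko GCps and 322 and 319 CPM in controls. The log2 fold change, cko over control here and throughout, was 0.22 with a standard error of 0.10 and was not called in the quasi-likelihood test of edgeR (adjusted p = 0.418). The counts were summed over all exons of the gene and hold no separate value for the deleted part, so they do not check the deletion, and the direction of each difference rests on the labels.

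The libraries held 73480074 and 62437759 counts in cko GCps and 77346481 and 61836588 in controls. Markers of GCps summed to 5426 and 5754 CPM in cko and 5516 and 5577 CPM in control libraries, and 0 of 8 passed the test. Sums for other cell types were 169 and 199 CPM in cko against 199 and 202 CPM in control libraries for Purkinje cells, 96.6 and 84.1 against 73.1 and 80.8 for GABAergic interneurons, 687 and 711 against 825 and 894 for astrocytes, and 335 and 346 against 254 and 219 for endothelium and pericytes. None of the 26 tested markers in these 4 lists passed. Calb1, a product of Purkinje cells, lay between 0.713 and 1.22 CPM in every library, so other genes carry the Purkinje cell sum. Skeletal muscle markers summed to 26.8 and 55.1 CPM in cko and 7.78 and 5.20 CPM in control libraries, with 3 of 7 higher in cko. Oligodendrocyte lineage markers summed to 419 and 440 CPM in cko and 392 and 349 CPM in control libraries, with 1 of 8 higher. Microglial markers summed to 222 and 230 CPM in cko and 231 and 196 CPM in control libraries, and 0 of 7 passed. No marker lay under 0.1 CPM in all libraries. The part of these cells in any difference given below was not tested. Xist, the transcript of the inactive X chromosome, was counted at 793 CPM in cko replicate 1, whereas the remaining libraries held 0.548 CPM or less. The genotypes were thus not matched in Xist, and the part of sex in any difference given below was not tested.

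Of the 80 neighbours, 67 were expressed highly enough to be tested and 13 were not. The untested genes reached at most 12 counts in any library, and 4 of them (Sdr16c5, Cyp7a1, Cnbd1 and Slc7a13) had no count in any library, which allows up to 3 counts in a library by counting error. Cyp7a1, the rate-limiting enzyme of bile acid synthesis in the liver, Mos, a kinase of oocytes, and Cngb3, a channel subunit of cone photoreceptors, were among the untested genes. Per kilobase of exon, a scale on which genes can be compared, the most abundant neighbours were Rps20 at 122 CPM per kb, Rab2a at 112 and Impad1 at 35.7 over the 4 libraries. Rps20 encodes a ribosomal protein and has processed pseudogene copies, so its counts are uncertain, and RAB2A is a small GTPase of traffic between the endoplasmic reticulum and the Golgi apparatus. Toward the low end of the tested genes, Atp6v0d2 stood at 0.117 and Plag1 at 0.161 CPM per kb.

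Estimated differences between the genotypes were small for most neighbours of Chd7, as they were for most tested genes. Of the 67 tested neighbours, 2 passed the test, that is 2.99%, against 1.58% of all 16436 tested genes, 1.66% of tested protein-coding genes and 2.15% of the 839 tested protein-coding genes elsewhere on chromosome 4. At the share of all genes, 1.06 of 67 would pass, so the count of neighbours lay near the background. It was 1 without control replicate 2, where 0.505% of all genes passed, and 3 without cko replicate 2, where 3.66% of all genes did. One of the called neighbours was higher in cko GCps (Necab1, beside a background of 0.809%) and the other lower (Nkain3, beside 0.773%). Widening the set to all annotated genes of the interval, coding or not, gave 80 tested genes and the same count of 2.

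Nkain3 (ENSMUSG00000055761, chromosome 4 from 20118874 to 20778866, minus strand) encodes a small membrane protein of the NKAIN family, whose members bind the beta subunit of the Na,K-ATPase. It was counted 206 and 174 times in cko libraries and 819 and 659 times in control libraries. These were 2.67 and 2.83 CPM in cko and 10.7 and 10.9 CPM in control GCps, with means of 2.75 ± 0.112 and 10.8 ± 0.162 CPM (SD, n = 2 each). Both cko libraries lay far below both control libraries, and the libraries of each genotype almost coincided. Control levels were 3.93-fold those of cko, with a log2 fold change of -1.97, a standard error of 0.17, a 95% interval of -2.37 to -1.58 and an adjusted p of 0.00847 in edgeR. The call held in all 8 alternative fits, where the highest adjusted p was 0.0311. Nkain3 starts 11.4 Mb above the Chd7 start.

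Necab1 (ENSMUSG00000040536, chromosome 4 from 14952245 to 15149794, minus strand) encodes a neuronal calcium-binding protein with an EF-hand domain. It was counted 600 and 620 times in cko libraries and 261 and 197 times in control libraries. Its level was 7.78 and 10.1 CPM in cko and 3.41 and 3.26 CPM in control GCps, with means of 8.93 ± 1.63 and 3.34 ± 0.101 CPM (SD, n = 2 each). Even the lower cko library was above both controls by more than the gap between the cko libraries. The mean was 2.68-fold higher in cko, with a log2 fold change of 1.42, a standard error of 0.20, a 95% interval of 0.95 to 1.89 and an adjusted p of 0.0313 in edgeR. Without control replicate 2 the log2 fold change was 1.39 and the call was lost (adjusted p = 0.137). In the other 7 alternative fits it was called. Necab1 starts 6.26 Mb above the Chd7 start, and the tested genes next to it, Pip4p2, a phosphoinositide phosphatase, on the lower side and Tmem64, a transmembrane protein, on the upper side, had log2 fold changes of 0.04 and 0.20 and were not called.

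**Figure D1:**
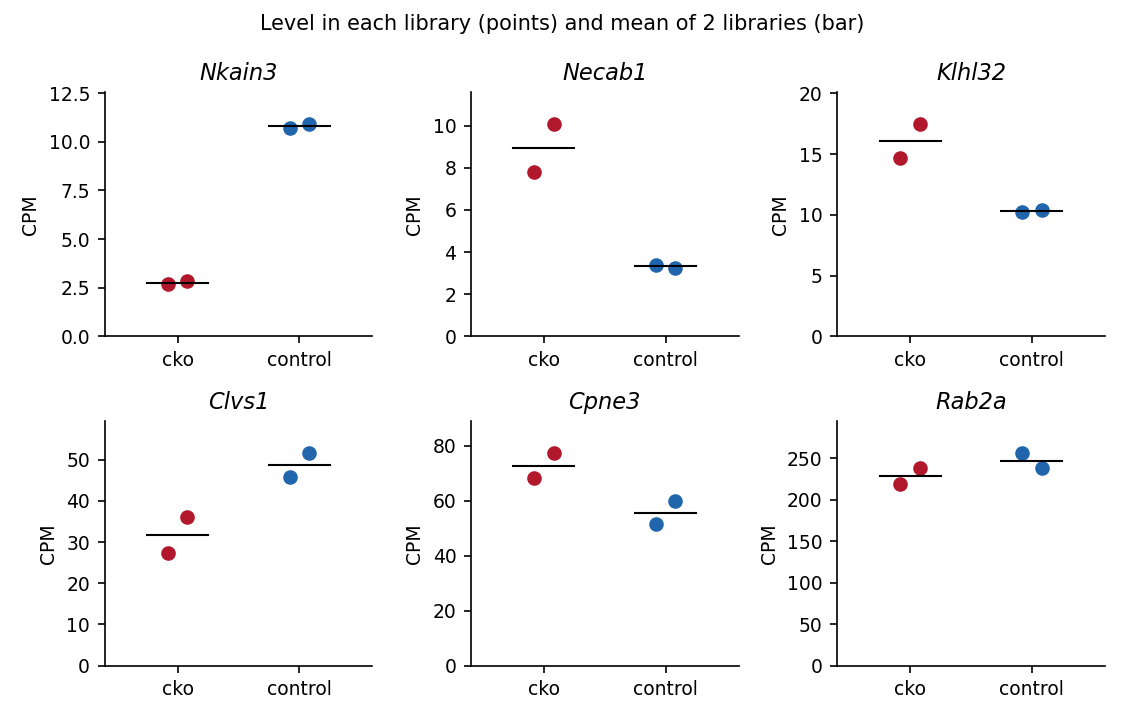
Levels of 6 neighbours of Chd7 in CPM (vertical axes, each from 0), with cko libraries in red at the left and control libraries in blue at the right; points are libraries and bars the mean of 2. The cko points of Nkain3 lie at 2.67 and 2.83 CPM below controls at 10.7 and 10.9, those of Necab1 at 7.78 and 10.1 above controls at 3.41 and 3.26, and those of Rab2a next to the controls.

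Another 3 neighbours were not called in this fit but passed in at least 1 alternative. The share of all tested genes that passed in any fit is not given here, so this count has no background beside it. Taken singly, 3 of the alternatives called more of all tested genes than this fit. The shares were 5.53% in DESeq2, 3.12% without the filter on low counts and 6.15% with the replicate block. Klhl32, a member of the kelch-like family, had 14.7 and 17.5 CPM in cko GCps, against 10.2 and 10.4 CPM in controls. The cko libraries did not overlap the controls, and the log2 fold change was 0.64 (standard error 0.15, adjusted p = 0.103 in edgeR). Klhl32 passed in DESeq2 (adjusted p = 0.00988), without the filter on low counts (adjusted p = 0.0332 in edgeR) and with the replicate block, a fit in which the replicate number is a further term (adjusted p = 0.0214 in edgeR), and its adjusted p ranged up to 0.396 over the alternatives. It starts 15.9 Mb above Chd7.

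Clvs1 encodes clavesin 1, a phosphoinositide-binding protein of clathrin-coated vesicles in neurons, and was the nearest tested neighbour above Chd7, at 0.579 Mb. It had 27.3 and 36.2 CPM in cko GCps, against 45.8 and 51.6 CPM in controls. Both cko libraries lay below both controls, although the libraries within each genotype also differed. Its log2 fold change was -0.62 (standard error 0.16, adjusted p = 0.132 in edgeR), with adjusted p from 0.00697 to 0.471 over the alternatives, and it passed in DESeq2, without the filter, with the block and without cko replicate 2. On the opposite strand, 36.3% of its exonic length is shared with Asph and another gene, and since the sources used here do not say whether reads were counted by strand, its counts may include reads of these genes.

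Cpne3, a copine that binds phospholipids in the presence of calcium, had 68.3 and 77.3 CPM in cko GCps, against 51.4 and 59.8 CPM in controls. The lower cko library exceeded the higher control library, and the log2 fold change was 0.39 (standard error 0.12, adjusted p = 0.201 in edgeR). It passed only with the replicate block (adjusted p = 0.0261 in edgeR).

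The remaining neighbours were called in none of the fits, which with 2 libraries per genotype does not show that their levels were equal. The log2 fold changes of the 65 tested neighbours that were not called ran from -0.62 to 0.64. Over the 67 tested, the median was -0.01, beside -0.00 over all tested genes and 0.01 over the rest of chromosome 4, and 33 values were above 0 and 34 below. The median without regard to sign was 0.13, beside 0.15 over all tested genes, 0.14 over tested protein-coding genes and 0.16 over the rest of chromosome 4. An absolute log2 fold change over 0.5 was reached by 4 neighbours, or 5.97%. The share was 14.8% over all tested genes, 13.2% over tested protein-coding genes and 14.4% over those elsewhere on chromosome 4. At an unadjusted p under 0.05 in edgeR there were 8 neighbours, or 11.9%, of which 6 were higher and 2 lower in cko, against 13.6% of all tested genes. Less abundant neighbours had the larger differences: the average log2 CPM of the 67 neighbours correlated with their absolute log2 fold change at a Spearman rho of -0.36, given as a description since the genes share the same 4 libraries.

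Separation of the 2 libraries of one genotype from the 2 of the other was common among the neighbours and among genes in general. Both cko libraries were above both control libraries for 17 neighbours (25.4%, against 22.7% of all tested genes) and below both for 20 (29.9%, against 21.2%), and the libraries overlapped for 30. Summed over all 80 genes, the neighbours took 0.308% and 0.308% of the counts of the cko libraries and 0.302% and 0.303% of those of the controls. The difference of 0.00517 percentage points had an exact two-sided permutation p of 0.333, the smallest that 2 against 2 libraries can give.

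Calls in the distance bins were too few to read against the 1.58% of all tested genes called, and are given as counts. Of all tested genes, 13.6% had an unadjusted p under 0.05 in edgeR and 5.53% were called in DESeq2. Within 2 Mb of the Chd7 start, 4 of 5 neighbours were tested and 0 called in edgeR, with 1 at an unadjusted p under 0.05, 1 called in DESeq2 and a median log2 fold change of -0.07. From 2 to 5 Mb, 28 were tested and 0 called, 1 had an unadjusted p under 0.05, and the median was -0.06. From 5 to 10 Mb 1 of 15 was called and 2 had an unadjusted p under 0.05, with a median of 0.04, and beyond 10 Mb 1 of 20 was called and 4 had an unadjusted p under 0.05, with a median of 0.01. The median absolute log2 fold change was 0.18, 0.15, 0.13 and 0.12 from the nearest to the farthest of these bins, of which the nearest holds only 4 tested genes. Across the 67 genes, Spearman's rho of distance with the log2 fold change was 0.17 (Pearson's r = 0.07), and with its absolute value -0.03 (r = 0.09). These are descriptions across genes of the same 4 libraries. Both called genes lay over 5 Mb from Chd7, with uncalled genes between them and Chd7. How far any passenger DNA reaches is not stated in these sources, so distance cannot place a gene inside or outside it. Whether the called genes lie in such DNA was not tested.

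**Figure D2:**
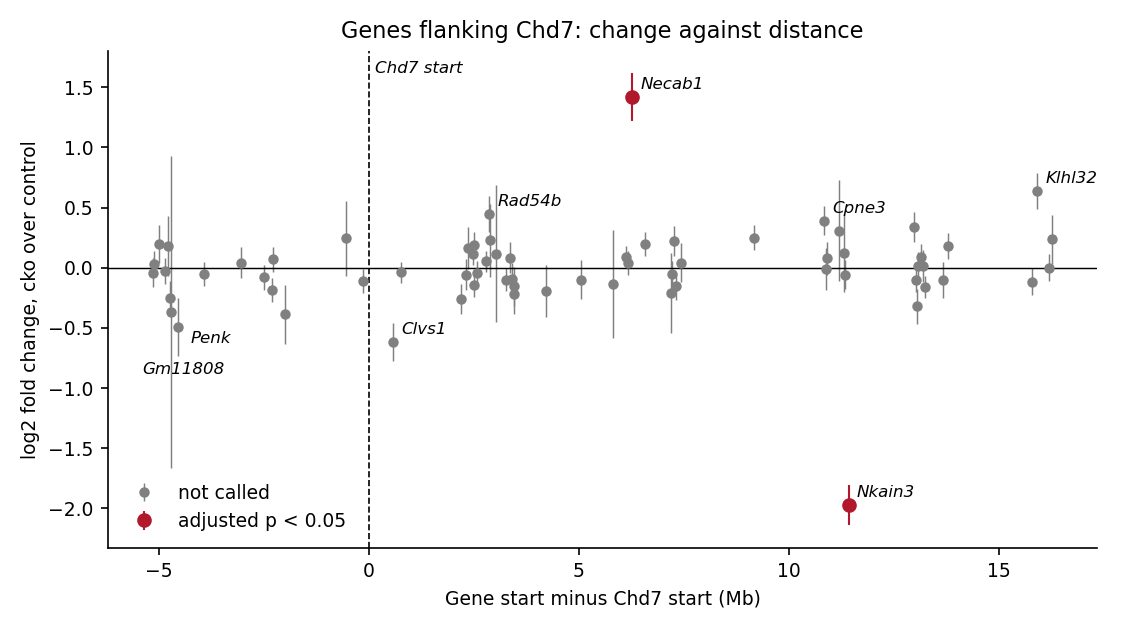
Log2 fold change of each of the 67 tested neighbours, cko over control (vertical axis), against the distance of the gene start from the Chd7 start in Mb (horizontal axis); bars are standard errors and red points passed edgeR at an adjusted p under 0.05. Values gather around 0 at all distances, with Necab1 at 1.42 and Nkain3 at -1.97 standing apart at 6.26 and 11.4 Mb, and the long bar belongs to Gm11808 (standard error 1.30).

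Rab2a, whose start lies 0.155 Mb below that of Chd7, had 220 and 238 CPM in cko GCps, against 256 and 238 CPM in controls. One cko library and one control library were level to the printed digits. Its log2 fold change was -0.11 with a 95% interval of -0.35 to 0.13 (adjusted p = 0.731 in edgeR). Car8, which encodes a carbonic anhydrase-related protein abundant in Purkinje cells and lies 0.547 Mb below, was low in all libraries, at 0.869 and 1.32 CPM in cko and 0.862 and 0.978 CPM in control GCps, and the groups overlapped. Asph, an aspartate beta-hydroxylase 0.758 Mb above Chd7, had 81.9 and 85.5 CPM in cko and 86.2 and 85.6 CPM in control GCps, with a log2 fold change of -0.04 and a 95% interval of -0.25 to 0.17. Thus the gap between the Asph means was within the spread of the libraries, and for Asph and Rab2a the intervals leave room for changes of up to -0.25 and -0.35 on the log2 scale. Of the exonic length of Asph, 14.7% is shared with Clvs1 and another gene on the opposite strand. Gdf6, a growth factor of the BMP family and the only untested gene within 2 Mb, had 0 and 4 counts in cko and 2 and 2 in control libraries.

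Somewhat farther below Chd7, Tox, a nuclear protein with an HMG box, had 2.06 and 2.93 CPM in cko, against 3.05 and 3.46 CPM in control GCps. The libraries did not overlap, but the log2 fold change of -0.39 had a standard error of 0.25 (adjusted p = 0.60 in edgeR). Nsmaf, a factor that couples a TNF receptor to neutral sphingomyelinase, and Sdcbp, the scaffold protein syntenin, had log2 fold changes of 0.07 and -0.18, with adjusted p of 0.858 and 0.534 in edgeR. Above Chd7, 2610301B20Rik had 29.1 and 33.9 CPM in cko and 35.2 and 40.3 CPM in control GCps and a log2 fold change of -0.26 (adjusted p = 0.468 in edgeR). Plekhf2, an endosomal protein, had a log2 fold change of -0.06, and Ndufaf6, an assembly factor of respiratory complex I, one of 0.17 (adjusted p = 0.914 and 0.780 in edgeR).

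The neighbours were grouped by what they are known to do. The 6 tested transcription and chromatin factors held 0 called genes and a median log2 fold change of 0.18. Prdm13, a PRDM zinc finger protein that helps to specify neuron types, had 37.7 and 31.4 CPM in cko, against 27.1 and 27.6 CPM in control GCps. Both cko libraries were higher, and the log2 fold change was 0.34 (standard error 0.13, adjusted p = 0.293 in edgeR). Pou3f2, a POU factor of neural progenitors also called Brn2, had 64.6 and 63.4 CPM in cko, against 52.2 and 60.5 CPM in control GCps, again without overlap, and a log2 fold change of 0.18 (adjusted p = 0.565 in edgeR). In the same list, Runx1t1, a corepressor, had -0.10 and Plag1, a zinc finger factor at 1.19 to 1.53 CPM, had 0.18.

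Genes of the cell cycle and DNA repair, of interest in a proliferating progenitor, also held 0 called genes among 6 tested, with a median log2 fold change of 0.15. Rad54b, a helicase-like protein of homologous recombination, was counted 1425 and 922 times in cko libraries, against 928 and 753 times in control libraries, with means of 16.7 ± 2.47 CPM in cko and 12.3 ± 0.257 CPM in control GCps (SD, n = 2 each). On the CPM scale the cko libraries lay above the controls, and the log2 fold change was 0.45 (standard error 0.15, unadjusted p = 0.0216, adjusted p = 0.246 in edgeR). It shares 35.8% of its exonic length with Fsbp on the same strand, so reads of the 2 genes are not fully separable in a gene-level count. Nbn, a subunit of the MRE11 complex that senses double-strand breaks, had 32.4 and 33.8 CPM in cko and 25.9 and 31.0 CPM in control GCps, and Ccne2, cyclin E2, which acts at entry into S phase, had 29.7 and 27.7 CPM in cko and 24.7 and 25.8 CPM in control GCps. In both genes the libraries separated by genotype, and the log2 fold changes were 0.22 and 0.19, with adjusted p of 0.548 and 0.557 in edgeR. On the opposite strand, 17.4% of the exonic length of Ccne2 is shared with Ints8, so its counts may include reads of that gene. Trp53inp1, a target of p53, Ccnc, the cyclin of the Mediator kinase module, and Mms22l, a replication fork protein, had 0.11, -0.10 and -0.12.

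The 7 tested genes of RNA processing and translation had 0 called and a median of -0.02, with values from -0.22 to 0.09. Rps20, the most highly counted neighbour, had 463 and 527 CPM in cko and 501 and 507 CPM in control GCps, with the control libraries inside the range of the cko libraries. Virma, a subunit of the RNA m6A methylation complex, had 0.05, Tgs1, a cap hypermethylase, had 0.03, and Ints8, a subunit of the Integrator complex, had -0.14. Rbm12b1 and Rbm12b2 are neighbouring copies that can share reads and are therefore uncertain, with -0.22 and -0.09.

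Mitochondrial proteins made up the largest group apart from membrane traffic, with 9 tested, 0 called and a median of -0.05. Pdp1, a phosphatase that activates the pyruvate dehydrogenase complex, had 49.3 and 51.2 CPM in cko, against 54.8 and 52.8 CPM in control GCps, a log2 fold change of -0.10 (adjusted p = 0.759 in edgeR). Tstd3, a rhodanese-like protein, had 9.87 and 11.2 CPM in cko and 13.7 and 12.6 CPM in control GCps, the lowest log2 fold change of the group at -0.32 (adjusted p = 0.415 in edgeR), and 21.0% of its exonic length is shared with genes on the opposite strand. Chchd7, which despite its symbol is unrelated to Chd7, had 11.1 and 12.2 CPM in cko and 14.7 and 13.0 CPM in control GCps, a log2 fold change of -0.25 (adjusted p = 0.552 in edgeR). In these 3 genes the cko libraries lay below the controls without overlap, and none passed. Ndufaf4, another assembly factor of complex I, had 26.7 and 29.5 CPM in cko and 27.4 and 28.8 CPM in control GCps, a log2 fold change of 0.00. The 5 tested genes of the ubiquitin system ran from -0.10 to 0.09 with 0 called, and the most abundant of them, Otud6b, a deubiquitinating enzyme, had 76.6 and 76.8 CPM in cko and 73.0 and 71.3 CPM in control GCps.

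**Figure D3:**
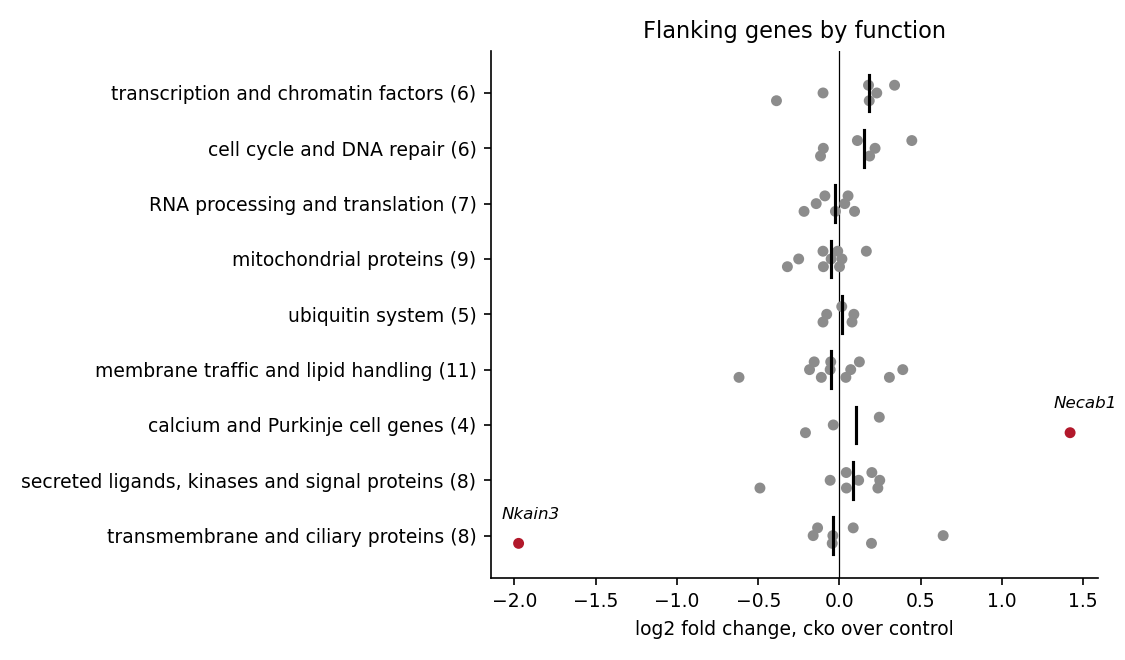
Log2 fold change, cko over control (horizontal axis), of the tested neighbours in 9 functional groups (rows, with the number tested in brackets); grey points were not called, red points were, and black bars are group medians. The medians lie between -0.05 and 0.18, and the 2 called genes, Necab1 and Nkain3, lie apart from the other members of their groups.

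Membrane traffic and lipid handling was the largest group, with 11 tested genes, 0 called and a median of -0.05. It holds Clvs1 and Cpne3 at its ends, at -0.62 and 0.39. Sdcbp had 175 and 199 CPM in cko, against 212 and 214 CPM in control GCps, without overlap. Of the 4 tested calcium and Purkinje cell genes, Necab1 was higher and 0 were lower in cko, and the median was 0.10. Calb1, the calcium-binding protein calbindin and a defining product of Purkinje cells, was at 0.713 and 1.22 CPM in cko and 1.10 and 1.13 CPM in control GCps, a log2 fold change of -0.21 (adjusted p = 0.866 in edgeR). Calb1 and Car8 both stayed between 0.713 and 1.32 CPM in every library, and each overlapped between the genotypes, whereas Necab1 did not. In these bulk libraries, fewer cells that express a gene and less of its RNA per cell cannot be told apart.

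Among 8 tested secreted ligands, kinases and signal proteins 0 were called, with a median of 0.08. Penk, the precursor of the enkephalin opioid peptides, had 2.32 and 3.40 CPM in cko, against 4.02 and 3.99 CPM in control GCps. Both cko libraries were lower, but they differed from each other by more than the higher of them differed from the controls, and the log2 fold change of -0.49 (standard error 0.24) had an adjusted p of 0.469 in edgeR. Of its exonic length, 14.3% is shared with a gene on the opposite strand. Mmp16, a membrane-type matrix metalloproteinase, had 41.2 and 44.8 CPM in cko, against 36.2 and 36.2 CPM in control GCps, a log2 fold change of 0.25 (adjusted p = 0.367 in edgeR). Lyn, a Src family kinase, and Gpr63, an orphan G protein-coupled receptor, had 0.20 and 0.24 and were not called (adjusted p = 0.683 and 0.718 in edgeR).

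Of 8 tested genes listed as transmembrane and ciliary proteins, Nkain3 was lower and 0 were higher in cko, and the median was -0.04. Klhl32, of the kelch-like family, had been placed in this list and held its highest log2 fold change, 0.64. Faxc had 88.8 and 97.0 CPM in cko, against 102 and 105 CPM in control GCps, a log2 fold change of -0.16 (adjusted p = 0.555 in edgeR). Tmem64 had 44.7 and 46.3 CPM in cko and 39.0 and 40.3 CPM in control GCps, a log2 fold change of 0.20 (adjusted p = 0.480 in edgeR). In both genes the libraries separated by genotype, in opposite directions. Tmem67, the ciliary membrane protein meckelin, had 0.08. Triqk, a small protein outside these groups, had 2.90 and 3.43 CPM in cko and 3.26 and 3.99 CPM in control GCps, which overlapped (log2 fold change -0.20, adjusted p = 0.793 in edgeR).

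The precision of a comparison of 2 against 2 libraries rests on how well the libraries of a genotype matched, and 2 neighbours did not match. Gm11808 (ENSMUSG00000068240) was counted 1002 and 177 times in cko replicates 1 and 2 and 1299 and 212 times in control replicates 1 and 2. It was thus 4.51-fold and 4.83-fold higher in CPM in replicate 1 than in replicate 2 of the cko and the control, and its log2 fold change of -0.37 between genotypes had a standard error of 1.30. GENCODE annotates Gm11808 as protein-coding and RefSeq as a pseudogene, and its counts are uncertain. Gem, a GTPase of the RGK family induced by cell stimulation, was counted 298 and 738 times in cko and 572 and 429 times in control libraries. It was 3.11-fold higher in CPM in replicate 2 than in replicate 1 of the cko while the controls were level at 7.47 and 7.11 CPM, and its standard error was 0.57. Among the other tested neighbours whose average log2 CPM reached 1, the log2 ratio of the replicates was at most 0.47 in size in cko and 0.26 in controls.

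**Figure D4:**
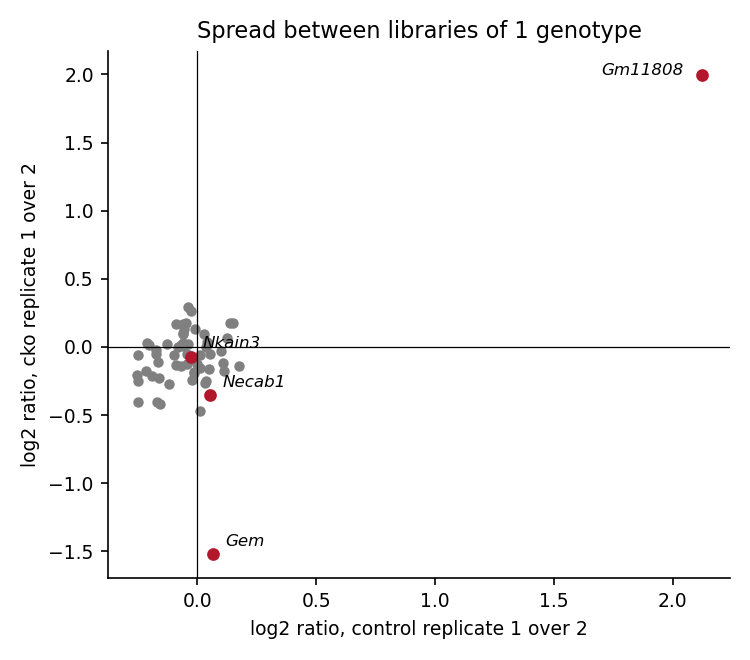
Log2 ratio of the CPM of replicate 1 to replicate 2 in cko (vertical axis) and in control libraries (horizontal axis) for tested neighbours whose average log2 CPM reached 1; each point is a gene, and the named genes are in red. Most genes, Nkain3 among them, lie near 0 on both axes, Necab1 lies at -0.35 in cko and 0.05 in control, Gm11808 lies high on both (4.51-fold in cko, 4.83-fold in control) and Gem is low in cko alone.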

How the data were processed

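Whole-number read counts per Ensembl gene, as the authors deposited them and without normalization, were used for 2 cko and 2 control RNA-Seq libraries. From the paper's methods and the processing notes of the submitters, trimming was done with Trim Galore 0.4.1, alignment to mm10 with TopHat2 2.0.14 and counting against Ensembl 75 with HTSeq 0.6.1p1 in intersection-strict mode, and the authors' own test was DESeq2 1.8.1. The ATAC-Seq and ChIP-Seq samples were not used here. Names, coordinates and shared exonic lengths came from GENCODE vM21, matched by Ensembl identifier.

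All genes kept by filterByExpr were fitted in edgeR 4.0.16 (R 4.3.3) with TMM scaling, the robust quasi-likelihood test and Benjamini-Hochberg adjustment over 16436 genes at 0.05, and only the neighbours of Chd7 are described. The fit was tested on simulated data. Standard errors are log2 fold changes divided by the square root of F. Alternatives were DESeq2 1.42.0, RLE size factors, no filter beyond 1 count, the replicate number as a block, leaving out each library, all annotated genes of the interval, and an interval ending at 15 Mb.

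Named genes were every called neighbour, the 10 highest and 10 lowest log2 fold changes among genes whose average log2 CPM reached 1, the 5 tested neighbours nearest Chd7 on each side and the most abundant gene of each functional group. Others were named after their values were seen. The neighbours, groups and marker lists were chosen with earlier results of these data known. The labels do not say whether the libraries of a genotype came from different animals. The cko libraries differed in Xist and so did not come from the same pool, whereas the spread between the control libraries may be technical, and the p-values reflect no other spread than that among these 4 libraries. Floors cover counting error only. A result on 1 further gene is not reported here.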

Additional observations from a re-analysis of the deposited data

How the results depend on the processing

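Nkain3 was lower in cko and called in all 8 alternative fits. The number of called neighbours was 2, and 4 in DESeq2, 4 without the filter on low counts and 1 in the interval ending at 15 Mb, where 40 genes were tested. Leaving out a library gave 1 to 3. The share of all tested genes called was 1.58%, and 5.53% in DESeq2, 3.12% without the filter and 0.505% to 3.66% on leaving out a library. The cause of these differences was not tested. With the replicate number as a block, 5 neighbours and 6.15% of all genes were called. The deviations of cko replicate 1 and control replicate 1 from their group means correlated at 0.19, and with 2 pairs the numbers were not taken to pair the libraries.

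The median absolute log2 fold change of 0.13 was 0.16 in DESeq2, 0.16 without the filter, 0.16 over all annotated genes of the interval and 0.12 to 0.17 on leaving out a library. The median log2 fold change ran from -0.03 to 0.03 on leaving out a library. On leaving out a library, Spearman's rho of distance ran from 0.0589 to 0.261 with the log2 fold change and from -0.0794 to 0.127 with its absolute value. In the interval ending at 15 Mb, rho was 0.0974 with the log2 fold change and -0.128 with its absolute value. Among named genes, 5 that were not called changed sign on leaving out a library, with ranges of -0.0693 to 0.00248 for Asph, -0.0795 to 0.529 for Car8, -1.83 to 1.17 for Gm11808, -0.203 to 0.0858 for Plekhf2 and -0.122 to 0.0763 for Rps20. Chd7 was called in none of the fits (adjusted p from 0.172 to 1.00 in edgeR and DESeq2). Depth left 13 neighbours, with at most 12 counts in any library, without a test.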
